A study of Mus musculus with 10 samples.

Results

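Hox genes encode homeodomain transcription factors and lie in 4 clusters, Hoxa, Hoxb, Hoxc and Hoxd. The members described here were chosen by symbol: every gene named Hoxa, Hoxb, Hoxc or Hoxd and a number that had a probe set with that symbol alone. There were 29 such genes among 17919 genes with a probe set of their own, out of 39 coding Hox genes in the RefSeq table of GRCm38.p6. The other 10 are not among the members. By that table the Hoxa cluster is on chromosome 6, Hoxb on chromosome 11, Hoxc on chromosome 15 and Hoxd on chromosome 2.

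The samples were 10 whole lungs from mice at E18.5, shortly before birth, each on 1 Affymetrix gene array: 5 from Shh-Cre control embryos and 5 from embryos labelled Shhcre:Hdac3fl/fl, here called knockout. Both groups had the mixed C57BL/6, 129X1 and 129S6 background. Shh-Cre is a recombinase driven from the Shh locus, which is active in lung epithelium, so cells outside that lineage keep Hdac3, a histone deacetylase of corepressor complexes. The Hdac3 alleles of the controls are not labelled, and in the stated cross (Hdac3 fl/fl mothers, Hdac3 fl/+ ShhCre fathers) every embryo receives 1 floxed allele from its mother. The deposited values are on a log2 scale and ran from 3.53 to 13.61 over all probe sets.

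Within a Hox cluster the genes are numbered from the 3' end to the 5' end, and genes with the same number in different clusters are paralogues. Low-numbered genes are known to be used early and in anterior parts of the embryo, and high-numbered genes later and in posterior parts, the limb buds and the genital tubercle. In the lung, Hoxa5 and Hoxb5 are known from the mesenchyme, and loss of Hoxa5 is known to disturb tracheal and lung development. Hox proteins bind short TAAT-rich sites together with TALE cofactors of the Pbx and Meis families, and Polycomb and trithorax group proteins hold Hox genes in silent or active states.

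To show the DNA next to the starts of genes at different levels in these lungs, the 250 bases before the RefSeq start of 4 members are given, 5′ to 3′ on the strand of the gene, from RefSeq (GRCm38.p6). They are Hoxa5, the member with the highest level (chr6:52204588-52204837, minus strand), its neighbour Hoxa6 (chr6:52208673-52208922, minus strand), Hoxb4 of the Hoxb cluster (chr11:96318017-96318266, plus strand) and Hoxa13, a member with a low level (chr6:52260881-52261130, minus strand). Capitals mark TAAT on either strand (read as TAAT or ATTA), the core recognised by many homeodomains.
Hoxa5: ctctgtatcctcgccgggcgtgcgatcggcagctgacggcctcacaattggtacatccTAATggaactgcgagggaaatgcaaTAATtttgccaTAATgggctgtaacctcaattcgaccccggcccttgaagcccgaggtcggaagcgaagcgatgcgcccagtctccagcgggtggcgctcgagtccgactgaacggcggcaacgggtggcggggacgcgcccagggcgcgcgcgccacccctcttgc
Hoxa6: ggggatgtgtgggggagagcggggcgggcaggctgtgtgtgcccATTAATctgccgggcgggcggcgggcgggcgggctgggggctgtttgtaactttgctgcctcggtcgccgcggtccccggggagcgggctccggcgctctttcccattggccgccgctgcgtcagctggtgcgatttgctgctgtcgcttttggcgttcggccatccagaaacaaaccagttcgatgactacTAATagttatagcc
Hoxb4: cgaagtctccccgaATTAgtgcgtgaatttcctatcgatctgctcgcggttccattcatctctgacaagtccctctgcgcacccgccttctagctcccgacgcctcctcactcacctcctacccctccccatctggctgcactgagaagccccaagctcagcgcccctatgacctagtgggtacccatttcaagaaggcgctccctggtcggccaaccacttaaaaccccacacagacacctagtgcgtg
Hoxa13: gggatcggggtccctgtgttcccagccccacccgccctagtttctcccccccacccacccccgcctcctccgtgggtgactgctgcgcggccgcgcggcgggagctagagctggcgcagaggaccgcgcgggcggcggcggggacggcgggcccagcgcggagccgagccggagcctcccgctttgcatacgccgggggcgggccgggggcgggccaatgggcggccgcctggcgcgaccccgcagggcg

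RefSeq windows were at hand for 16 of the 29 members (17 windows, with 2 for Hoxd11). TAAT on either strand was found 3 times in the Hoxa5 window, 3 times in that of Hoxa6 (a pair of these overlap), 1 time in that of Hoxb4 and 0 times in that of Hoxa13. It occurred in 12 of the 17 member windows (70.6%) and in 54.9% of all 32851 windows of this length. The median GC content was 59.2% in the member windows and 52.4% in all windows, and the median ratio of observed to expected CpG was 0.755 and 0.373. TATAAA, the TATA box, occurred in 1 member window (that of Hoxd13) and in 12.4% of all windows. AGGTCA, a nuclear receptor half-site, occurred in 4 member windows and in 14.0% of all, and CACGTG, an E-box, in 4 and in 6.02% of all, each motif being searched on both strands. By level, TAAT was in 4 of the 4 windows of members above the median of the table and in 4 of the 8 windows of low members. Matches numbered 2 in the window of Hoxa9 and 3 and 2 in those of Hoxd11, and Hoxa13 is a low member without one. Hoxa4, Hoxb3 and Hoxb5, also above the median, had no window here, nor had any Hoxc member. CACGTG was in 0 of the same 4 windows and in 4 of the same 8. The counts were 1 and 2 for AGGTCA and 0 and 1 for TATAAA. These matches describe the letters of the windows and not bound sites.

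Lung identity and the deletion were checked first. The epithelial genes Sftpc, Sftpb and Nkx2-1 had control means of 13.46, 12.60 and 11.01. Hdac3 went from 10.81 ± 0.10 to 10.50 ± 0.11 (SD, n = 5 per group), with every knockout lung under every control lung (log2 change -0.31 ± 0.07, SE, limma adjusted p = 0.0203). In these whole lungs, a smaller number of cells of a type and less RNA per cell cannot be told apart. The labels call the samples biological replicates without naming litters, so p-values measure the spread between these lungs.

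Hox genes of low and middle number in the Hoxa and Hoxb clusters had the highest levels in control lungs. Against the whole table, whose 20th percentile was 6.11 and whose median was 7.45, 14 of 29 members had a control mean above the 20th percentile and 7 had one above the median. These 7 were Hoxa2, Hoxa4, Hoxa5, Hoxa6, Hoxb3, Hoxb4 and Hoxb5. For comparison, 83.8% of all genes lay above the 20th percentile and 57.0% above the median. Probe sets differ in how well they bind, so a level places a gene within the table, and the order among genes is not a measured order of transcript amounts.

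**Figure D1:**
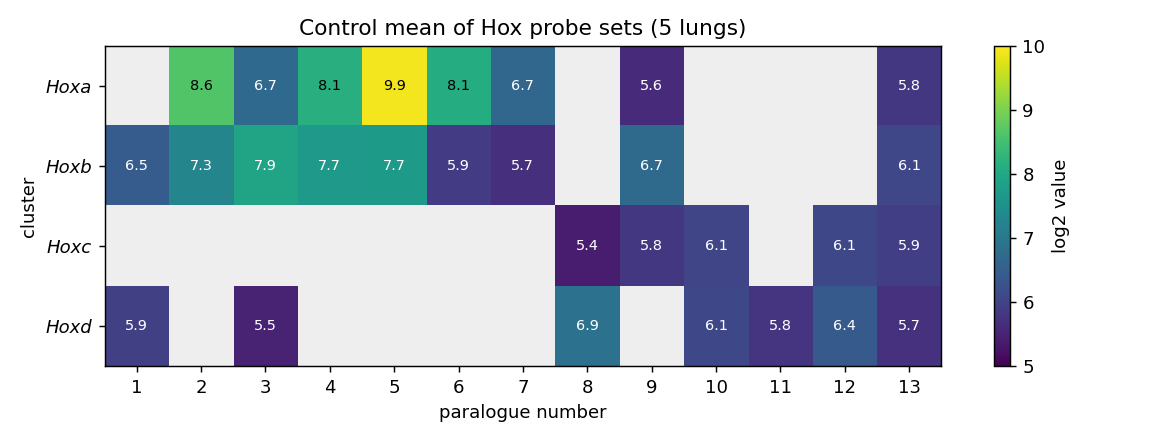
Mean log2 value of each Hox probe set over the 5 control lungs, with clusters as rows and paralogue numbers as columns; grey cells have no value here. The 7 members above the median of all values (7.45) lie in the Hoxa and Hoxb rows at numbers 2 to 6.

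Sorted by paralogue number, in bands drawn after the values were seen, 10 of the 13 members numbered 2 to 7 lay above the 20th percentile and 7 above the median. Of 14 members numbered 8 to 13, 3 lay above the 20th percentile and 0 above the median; their control means ran from 5.41 to 6.86. Both members of number 1 were near the threshold, Hoxb1 at 6.45 and Hoxd1 at 5.94. By cluster, 6 of 8 Hoxa, 6 of 9 Hoxb, 0 of 5 Hoxc and 2 of 7 Hoxd members lay above the 20th percentile. The Hoxc members measured here are all numbered 8 or more, so cluster and number cannot be told apart for them.

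Olfactory receptor genes, which the lung is not known to use widely, gave a second yardstick that was chosen after the values were seen. The 203 measured had a median control mean of 5.84 and a 95th percentile of 7.52. The same 7 members lay above that percentile, and Hoxb2 at 7.28 lay below it. The 4 members nearest to the 20th percentile from below were Hoxc12 (6.09), Hoxd10 (6.08), Hoxb13 (6.06) and Hoxc10 (6.05), and the nearest above it were Hoxd12 (6.42) and Hoxb1 (6.45).

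**Figure D2:**
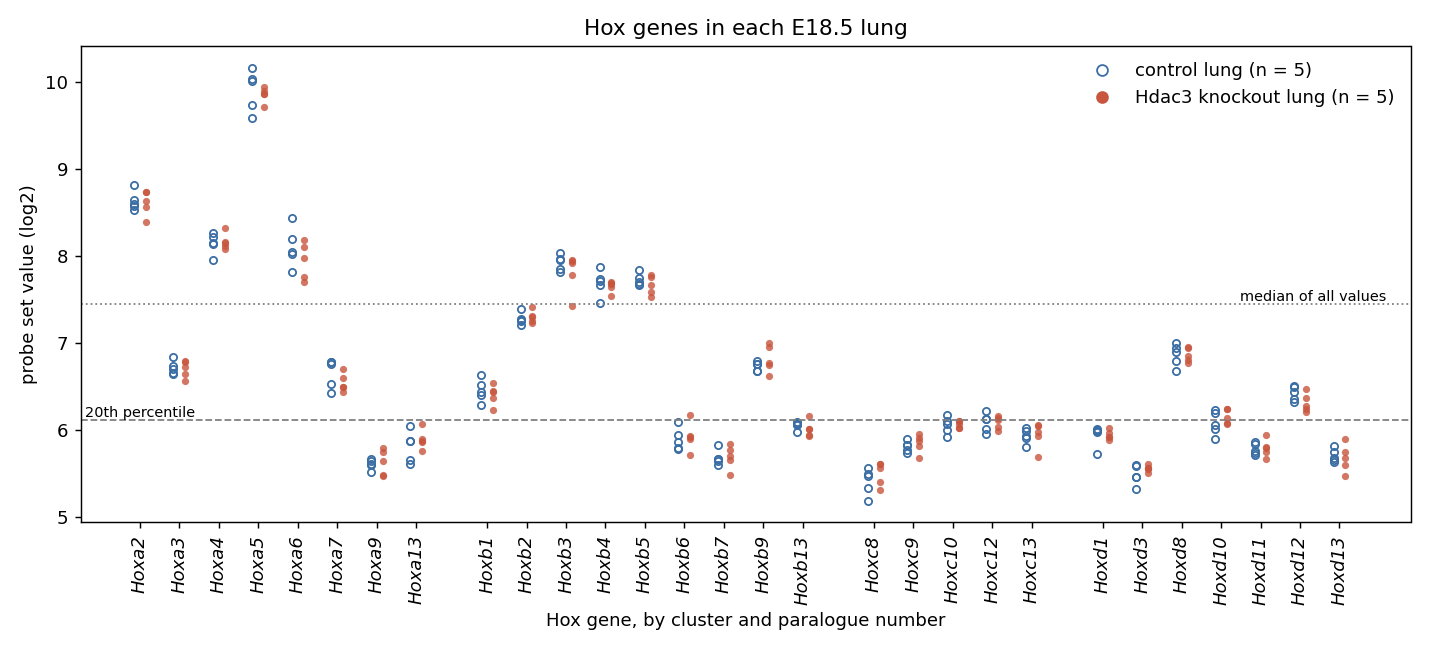
Log2 value of each Hox gene in each lung, with 5 control lungs as open circles and 5 knockout lungs as filled circles; the dashed and dotted lines mark the 20th percentile (6.11) and the median (7.45) of all values. The circles of the 2 groups overlap for every one of the 29 genes.

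The central comparison asks whether Hox genes differed between knockout and control lungs. Loss of Hdac3 within the epithelium is given by the genotype label and was not measured here. Of the 29 members, 0 were called by limma with Benjamini-Hochberg adjustment over all genes at 0.05, where 3.12% of all genes were called (559 of 17919). A count of 0 among 29 genes is near that background and is not a result about Hox genes. At an unadjusted p under 0.05 there were also 0 of 29, against 13.5% of all genes. For 0 of 29 members did the 5 knockout values lie apart from the 5 control values, against 5.11% of all genes. With the replicate number as a block, 0 members were called (4.72% of all genes, 846) and 0 had an unadjusted p under 0.05 (17.2% of all genes). Among the 14 members above the 20th percentile 0 were called, where 3.49% of all genes above it were called and 14.6% had an unadjusted p under 0.05. The smallest adjusted p among the members was 0.506 without the block and 0.427 with it.

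All 29 of the 95% intervals from limma included 0, and all 29 lay within a change of 1.5-fold, which is 0.58 on the log2 scale. The intervals are for whole lungs and set no such limit on a change within the epithelium. That of the deleted gene Hdac3, from -0.46 to -0.17, also lay within 1.5-fold. For the 14 members above the 20th percentile the outermost bounds were -0.41 (Hoxa6) and 0.24 (Hoxb9). For the 15 low members the intervals describe the probe set value only, which can be background of the array. Hoxc8 had the outermost bound among them, 0.27. The 7 members between the 20th percentile and the median, Hoxb9 among them, lie below the olfactory receptor percentile of 7.52. Background can enter their values too. The log2 changes themselves ran from -0.16 to 0.09, with 12 negative and 17 positive and a median of 0.00; over all genes the median was 0.00 and 52.0% were positive. The median size of a change without its sign was 0.036 for the members and 0.060 for all genes, and above the 20th percentile it was 0.054 for the 14 members and 0.060 for all genes. The median standard error was 0.069 for the members and 0.066 for all genes.

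**Figure D3:**
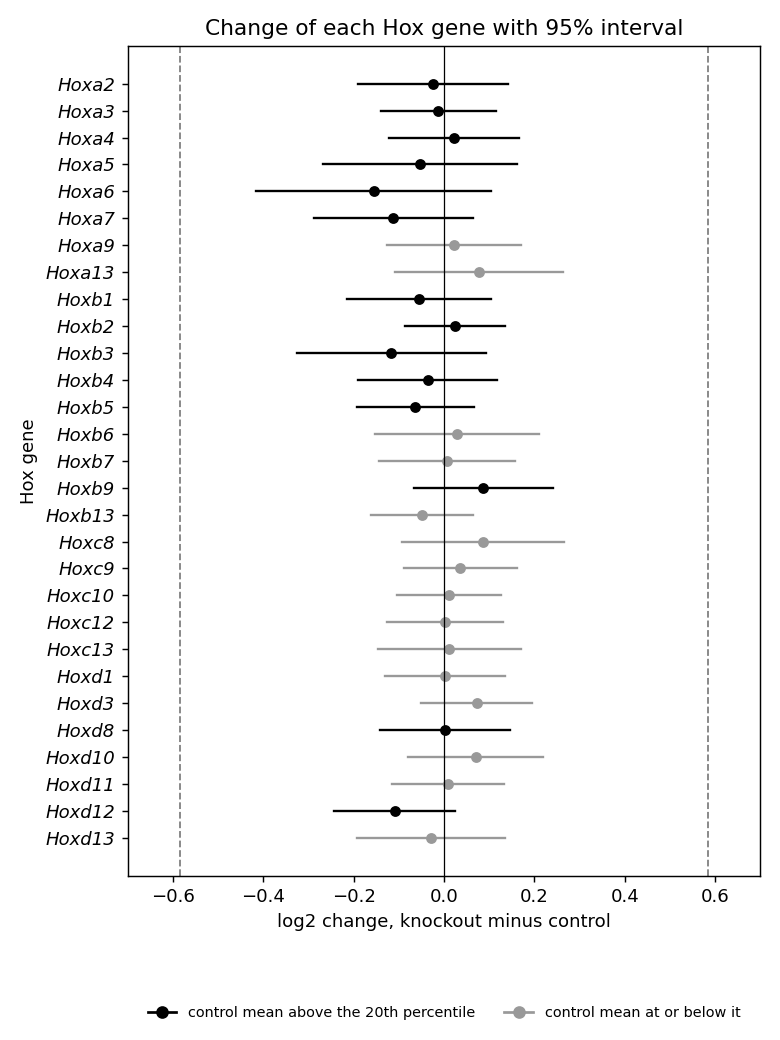
Log2 change of each Hox gene (knockout minus control, points) with its 95% interval from limma (bars); black marks members with a control mean above the 20th percentile, grey the others, and dashed lines a change of 1.5-fold. Every bar crosses 0 and ends inside the dashed lines.

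Hoxa5, the member best known from lung development, stood at 9.74, 10.01, 9.59, 10.17 and 10.04 in controls 1 to 5. It stood at 9.89, 9.71, 9.86, 9.94 and 9.86 in knockouts 1 to 5. The 5 knockout lungs lay inside the range of the controls, of which control 3 was lowest and control 4 highest. The log2 change was -0.05 ± 0.10 (SE, limma adjusted p = 0.897), and its interval ran from 83.0% to 112% of the control level. The SD was 0.24 in controls and 0.09 in knockouts (n = 5 each). The change was -0.13 without control 3 and 0.01 without control 4, so its size and sign rested on those lungs.

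Hoxa6, the next gene of the cluster towards its 5′ end, had the largest change of any member with all lungs, which did not pass the test. Its control values were 8.05, 8.02, 7.82, 8.43 and 8.19, and its knockout values were 7.71, 7.76, 8.11, 8.18 and 7.98. Knockouts 1 and 2 lay below all controls, and the other 3 lay among them. The log2 change was -0.16 ± 0.12 (SE, limma adjusted p = 0.659, 0.427 with the block), with an interval from 75.0% to 107% of the control level. It was -0.07 without control 4, -0.10 without knockout 1 and -0.23 without control 3; without control 4 other members had larger changes, such as Hoxb3 at -0.11.

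Hoxa2, which patterns the hindbrain and the second branchial arch, read 8.65, 8.81, 8.60, 8.57 and 8.53 in controls and 8.74, 8.63, 8.74, 8.56 and 8.39 in knockouts. Hoxa4, of the neck and upper thorax, read 7.95, 8.26, 8.14, 8.22 and 8.14 in controls and 8.12, 8.16, 8.15, 8.32 and 8.08 in knockouts. The groups overlapped for both genes. Their log2 changes were -0.02 ± 0.08 and 0.02 ± 0.07 (SE).

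Hoxa3, needed for the thymus and parathyroid glands, and Hoxa7 lay between the 20th percentile and the median. Hoxa3 ran from 6.64 to 6.84 in controls and from 6.56 to 6.79 in knockouts. Hoxa7 ran from 6.42 to 6.78 in controls and from 6.43 to 6.70 in knockouts, with a log2 change of -0.11 ± 0.08 (SE, limma adjusted p = 0.635). Leaving out control 3, the lowest control for Hoxa7, gave -0.17 (limma adjusted p = 0.381). Leaving out the lowest control can only make the change more negative, so this fit is no further support for a fall. Hoxa9, a regulator of blood progenitors, and Hoxa13, of the digits and the genital tract, were low in both groups, with control means of 5.61 and 5.81.

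In the Hoxb cluster, Hoxb3 had the highest control mean. It read 7.81, 8.03, 7.85, 7.96 and 7.96 in controls and 7.42, 7.78, 7.95, 7.92 and 7.95 in knockouts. Knockout 1 was the lowest lung, and knockouts 3, 4 and 5 lay among the controls. The log2 change was -0.12 ± 0.10 (SE, limma adjusted p = 0.694) with all lungs and -0.02 without knockout 1.

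Hoxb5, which is known from lung mesenchyme and airway branching, read 7.67, 7.75, 7.70, 7.84 and 7.66 in controls and 7.53, 7.59, 7.66, 7.78 and 7.76 in knockouts. Knockouts 1 to 3 lay below the lowest control, and knockouts 4 and 5 lay within the control range. The log2 change was -0.06 ± 0.06 (SE, limma adjusted p = 0.734). Hoxb5 is the one member with a further probe set of its own, which read 7.29 ± 0.05 in controls and 7.37 ± 0.08 in knockouts (SD, n = 5), a log2 change of 0.09 ± 0.05 (SE), so the probe sets differ in sign.

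Hoxb4, which expands blood stem cells when overexpressed, read 7.66, 7.73, 7.46, 7.88 and 7.71 in controls and 7.64, 7.68, 7.54, 7.69 and 7.70 in knockouts. All knockout values fell between the lowest control (control 3) and the highest (control 4). The hindbrain genes Hoxb2 and Hoxb1 had control means of 7.28 and 6.45 and log2 changes of 0.02 and -0.05. Hoxb9, of the thoracic skeleton, ran from 6.68 to 6.79 in controls and from 6.62 to 7.00 in knockouts, a log2 change of 0.09 ± 0.07 (SE). Hoxb6, Hoxb7 and Hoxb13 had control means from 5.68 to 6.06, at or below the 20th percentile.

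**Figure D4:**
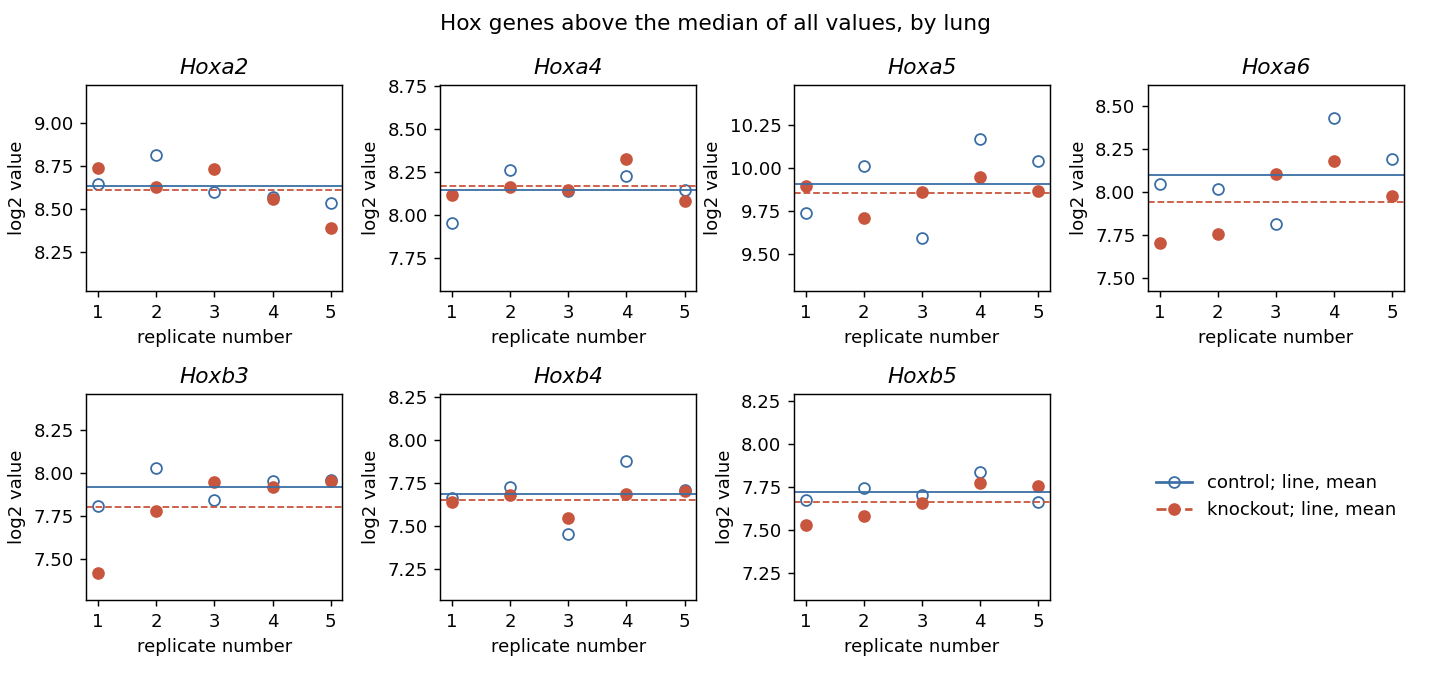
Log2 values of the 7 members above the median of all values, by the replicate number of the lung; open circles and solid lines are controls and their mean, filled circles and dashed lines are knockouts and their mean. Each panel spans the same 1.2 log2 units, and the values of the groups overlap in all 7.

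Among these 7 members 6 had a negative and 1 a positive change, and none passed the test. Hoxb5 is 1 of the 6, and its further probe set had the opposite sign. Summed up per lung as the median difference of the 14 members above the 20th percentile from their control means, control lungs ran from -0.07 to 0.08 and knockout lungs from -0.08 to 0.03. Control 4 was highest and knockout 1 lowest, and the groups overlapped. Of the 14 members 10 had a negative change, and the median change was -0.04, beside 0.00 over all 15020 genes above that level.

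Hoxd8 had the highest control mean of the Hoxd cluster. It read 6.89, 6.68, 6.80, 6.94 and 7.00 in controls and 6.80, 6.94, 6.85, 6.95 and 6.77 in knockouts, and the log2 change was 0.00 ± 0.07 (SE). Hoxd12, a limb gene, had the smallest p of any member. It read 6.35, 6.44, 6.32, 6.49 and 6.50 in controls and 6.47, 6.37, 6.24, 6.27 and 6.21 in knockouts, so knockouts 3, 4 and 5 lay below all controls and the other 2 among them. Its log2 change was -0.11 ± 0.06 (SE, limma unadjusted p = 0.103, adjusted p = 0.506). Within numbers 1 to 3 the change was -0.01, and within numbers 4 and 5, which hold 2 lungs of each group, it was -0.26. These sets were chosen with the data known, so no test is drawn from them. Without knockout 1 the change was -0.15 (limma adjusted p = 0.287). That lung was the highest knockout for Hoxd12, so leaving it out can only make the change more negative.

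The other Hoxd members, Hoxd1, Hoxd3, Hoxd10, Hoxd11 and Hoxd13, and all 5 Hoxc members had control means from 5.41 to 6.09. Several of these are known from limb, lumbar spinal cord and skin appendages, such as Hoxd13 in the digits, Hoxc10 in the hindlimb and Hoxc13 in hair and nails. Hoxc12, with the highest control mean of its cluster, read 6.21, 6.00, 5.96, 6.12 and 6.13 in controls and 6.16, 6.04, 6.11, 5.99 and 6.14 in knockouts. The groups overlapped around the 20th percentile. Over the 15 members at or below that percentile the log2 changes ran from -0.05 to 0.09; these values set no limit on a change of the transcript.

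Over all genes, lungs numbered 4 and 5 stood apart from those numbered 1 to 3 within each group along the second principal component, which held 22.1% of all variance. Scores of controls 1 to 3 ran from 8.89 to 14.5, and controls 4 and 5 scored -2.56 and -2.84, while knockouts 1 to 3 scored from -0.64 to 3.54 and knockouts 4 and 5 scored -13.2 and -17.0. The labels name no batch, and the sets were taken from earlier results of these data. Hoxa5 was 0.32 higher in numbers 4 and 5 than in 1 to 3 among controls and 0.08 higher among knockouts. Hoxa6 was 0.35 and 0.22 higher, and Hoxa2 differed by -0.13 and -0.23. The difference between knockout and control was 0.04 for Hoxa5 within numbers 1 to 3 and -0.20 within 4 and 5, so its sign depended on the set; for Hoxa6 it was -0.10 and -0.23. Within numbers 1 to 3, 0 Hox genes were called by limma, beside 2.50% of all genes (448). Within numbers 4 and 5, which hold 2 lungs of each group, 0 were called beside 0.0112% of all genes (2), so that fit could hardly call any gene. Within numbers 1 to 3 the log2 change of Hoxd3 was 0.15, and within numbers 4 and 5 it was -0.04. Its own probe set was low, at 5.48 in controls, while one that carries the symbols Hoxd4 and Hoxd3 read 6.44, above the 20th percentile.

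Whether neighbouring Hox genes varied together across lungs was examined for 9 pairs of consecutive number in 1 cluster, both above the 20th percentile, a choice made after the values were seen. Pearson's r over the 10 lungs was above 0 for 8 of 9 pairs, and 0 pairs passed adjustment over the 9 (lowest adjusted p = 0.15 for r and 0.113 for Spearman's rho, permutation test, two-sided). Hoxa5 and Hoxa6 had the highest r, 0.732 (permutation p = 0.0166, adjusted 0.15), with Spearman's rho 0.648 (permutation p = 0.0494, adjusted 0.148). Without controls 3 and 4, the lungs farthest from the Hoxa5 median, r was 0.493, and within numbers 1 to 3 (6 lungs) it was 0.314. Hoxb2 and Hoxb3 had the one r below 0, at -0.0639; it was -0.755 without control 4 and knockout 5 and -0.926 within numbers 1 to 3. Within those numbers 6 of the 9 pairs had an r above 0. The permutations shuffled all 10 lungs freely across groups and numbers, so their p-values do not allow for differences between groups or sets of numbers. Both values of a lung come from 1 array and 1 mixture of cells, and their part in these correlations was not tested.

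Genes that act with or on Hox genes, and markers of cell types, were read from lists; each count below stands beside the 3.12% of all genes called and the 13.5% with an unadjusted p under 0.05. Of 8 measured TALE cofactors 0 passed the limma test, and 3 had an unadjusted p under 0.05 (all genes 13.5%). Meis1, a partner of Hox proteins, stood at 10.66 ± 0.10 in controls and 10.61 ± 0.08 in knockouts (SD, n = 5). Pbx2 had the smallest p of the list, with a log2 change of 0.18 ± 0.07 (SE, limma adjusted p = 0.23). Pbx4 and Pbx3, also at an unadjusted p under 0.05, had negative changes, -0.14 ± 0.06 and -0.12 ± 0.05 (SE). The median change of the list was -0.05.

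Of 21 Polycomb genes 0 rose and 1 fell, beside 1.54% of all genes that rose and 1.58% that fell; 3 had an unadjusted p under 0.05. The 1 was Jarid2, a cofactor of Polycomb repressive complex 2, which ran from 9.71 to 9.83 in controls and from 9.45 to 9.63 in knockouts. The groups did not overlap. Its log2 change was -0.20 ± 0.05 (SE, limma adjusted p = 0.0429), and with the replicate block it was not called (adjusted p = 0.0585). Of 15 trithorax group and other activator genes 0 passed the limma test, with 1 at an unadjusted p under 0.05, Kmt2b, a histone H3 lysine methyltransferase (0.15 ± 0.05, SE, adjusted p = 0.12).

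Retinoic acid induces Hox genes of low number. Of 17 measured genes of its synthesis, receptors and breakdown 0 passed the limma test, with 2 at an unadjusted p under 0.05. Crabp1, a cytoplasmic retinoic acid binding protein, ran from 6.88 to 7.51 in controls and from 7.16 to 8.05 in knockouts (log2 change 0.47 ± 0.17, SE, limma adjusted p = 0.206). Aldh1a2, also at an unadjusted p under 0.05, went the other way. It ran from 7.90 to 8.50 in controls and from 7.83 to 8.12 in knockouts (-0.27 ± 0.10, SE, limma adjusted p = 0.218). Of 5 upstream regulators such as the Cdx genes 0 were called, 0 at an unadjusted p under 0.05; Gdf11, a ligand that acts on posterior Hox genes, had the smallest p (-0.09 ± 0.07, SE, limma adjusted p = 0.68). Of 12 genes that flank the clusters 0 passed the limma test, with 1 at an unadjusted p under 0.05, Calcoco1 beside Hoxc (-0.13 ± 0.05, SE, adjusted p = 0.279).

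Of 17 listed noncoding transcripts of the clusters 3 were measured, and 0 were called by limma, 0 also at an unadjusted p under 0.05. Hoxaas3, an antisense transcript in the Hoxa cluster, stood at 7.36 ± 0.10 in controls and 7.42 ± 0.06 in knockouts (SD, n = 5), and Hoxd3os1, opposite Hoxd3, at 6.65 ± 0.09 and 6.71 ± 0.07. The precursor of miR-615, which lies in the Hoxc cluster (chr15:103014926-103014990 from the first to the last base of its mature arms, plus strand, GRCm38.p6), read 6.10 ± 0.16 in controls and 5.97 ± 0.07 in knockouts. Its control mean lies just under the 20th percentile of the table (6.11), so the value can be background of the array. Labelling began from a poly(T) primer, so any signal in it comes from polyadenylated RNA and not the mature arms. Their RefSeq sequences, which are shown since this is the one Hox microRNA measured, have the seed (bases 2 to 8) in capitals.
mmu-miR-615-5p: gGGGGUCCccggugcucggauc
mmu-miR-615-3p: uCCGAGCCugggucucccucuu

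The mesenchyme, in which lung Hox genes are chiefly known, was followed with 19 transcription factors. For these 0 passed the limma test, with 2 at an unadjusted p under 0.05; Twist2, a low gene here at 5.70 in controls, had the smallest p (0.21 ± 0.07, SE, adjusted p = 0.154). The median log2 change of the list was -0.03, with the mean level per lung from 8.87 to 8.97 in controls and from 8.87 to 8.92 in knockouts. Of 10 fibroblast, 7 smooth muscle and 7 endothelial markers 0 were called by limma, and 0, 1 and 0 had an unadjusted p under 0.05. Their median changes were -0.02, -0.10 and -0.03. All 7 smooth muscle markers had a negative change, from -0.41 to -0.004. The mean of the smooth muscle list ran from 9.07 to 9.18 in controls and from 8.89 to 9.11 in knockouts. Of 10 epithelial markers the keratins Krt8 and Krt18 rose, by 0.74 and 1.34, and the other 8 did not pass the test. By limma 3 of the 10, these keratins and Cdh1, had an unadjusted p under 0.05. Cdh1 ran from 11.15 to 11.28 in controls and from 11.31 to 11.46 in knockouts, without overlap. Its log2 change was 0.18 ± 0.05 (SE, limma adjusted p = 0.0517). Foxj1, Cldn18 and Epcam had changes of 0.12, 0.07 and 0.04. Sftpc, Sftpb, Nkx2-1 and Scgb1a1, a club cell secretory gene, had changes of -0.02, -0.01, -0.04 and -0.15. The mean of the epithelial list ran from 11.28 to 11.35 in controls and from 11.51 to 11.57 in knockouts, while its median change was 0.05.

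Tissues dissected along with a lung can carry Hox genes of their own, so their markers were read too. Of 5 neuron and glia, 6 cartilage and 6 skeletal muscle markers 0 were called by limma, with 0, 0 and 1 at an unadjusted p under 0.05. The mean of each list per lung overlapped between the groups, at 6.64 to 6.76 and 6.69 to 6.78 for neurons and glia, 6.19 to 6.43 and 6.25 to 6.43 for cartilage, and 7.00 to 7.23 and 7.00 to 7.21 for skeletal muscle (controls and knockouts). Of 5 thymus and oesophagus markers Krt13, a keratin of stratified epithelium, rose by 0.74 ± 0.09 (SE, limma adjusted p = 0.000733). A second keratin, Krt4, had an unadjusted p under 0.05 (0.55 ± 0.19, SE, adjusted p = 0.18), and the thymus genes Foxn1, Psmb11 and Cd4 had changes of 0.00, -0.03 and -0.06. The mean of these 5 ran from 5.96 to 6.11 in controls and from 6.12 to 6.43 in knockouts, and their median change was 0.00. The 6 leukocyte markers had 0 calls by limma and 2 at an unadjusted p under 0.05 (all genes 13.5%), and their mean ran from 8.46 to 8.63 in controls and from 8.21 to 8.46 in knockouts, without overlap. The 4 erythroid markers had 0 of either. With the replicate block Cnn1 (smooth muscle) and Laptm5 (leukocyte) fell and Slc4a1 (erythroid) rose, by 0.41, 0.27 and 0.22. The part of these differences in the Hox values was not tested.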

How the data were processed

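The authors deposited log2 probe set values. The tools in the submitters' processing notes are oligo, RMA and limma, with no version; the sources used here do not give the build or annotation behind the values. There were 24888 rows and no missing value; sample medians lay between 7.43 and 7.46, and samples correlated at 0.984 to 0.995. Precision is limited by the number of arrays. The platform annotation gave 1 symbol to 18922 rows, several to 1343 and none to 4623; all 29 members matched RefSeq by gene ID. The row with the highest mean over all samples stood for a gene.

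Knockout and control were compared with limma 3.58.1 in R 4.3.3 (lmFit and eBayes, two-sided, all genes, threshold 0.05); the fit was tested on simulated data. Neighbour correlations used 100000 permutations. The members, lists and alternatives were chosen with earlier results of these data known. Values per lung were given for Hoxa5, Hoxb5, the highest member of each cluster, and, chosen after their values were seen, the other members above the median and Hoxd12; Hoxc5, also in that rule, was not analysed here. Meis1, Pbx3, Pbx4, Aldh1a2, the epithelial markers that were not called, Krt4 and the thymus genes were likewise added. From each background list the called genes, or the one of smallest p, were named.

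No label says what replicate numbers share. Deviations from group means of same-numbered lungs correlated at 0.154 to 0.485 (different numbers: median -0.0829, highest 0.33). All same-numbered values exceed 0.1, but the highest between different numbers exceeds some of them, so the pairing is uncertain. Of 5 controls 4, and of 5 knockouts 3, correlated best with the lung of their own number. The fit with the replicate block took the numbers as pairs, from the data and not the labels, and the first fit did not.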

Additional observations from a re-analysis of the deposited data

Results flagged for a closer look

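Hoxd1 in control 2 stood apart from the other controls. It read 5.73, where the others ran from 5.98 to 6.01, and the gap was 0.882 of the range of the group, above Dixon's critical value of 0.71 for 5 samples. It was 1 of 58 groups of values examined, of which chance flags about 1 in 20. All 5 values lie under the 20th percentile of the table.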

How the results depend on the processing

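The count of Hox genes called was 0 under all 22 other settings run: the replicate block, other choices of probe set, a filter, a floor, both rescalings, another variance prior, each lung left out, and, chosen after seeing the data, each set of numbers, the sets as a block and all rows. The smallest adjusted p in them was 0.287 (Hoxd12, without knockout 1). Of 614 single gene values 78 differed in sign from the first fit and 0 were called; for 6 of 29 genes (Hoxa6, Hoxa7, Hoxb3, Hoxb9, Hoxd10 and Hoxd12) the sign was the same in every setting that gave a value.

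Among all genes tested, 846 were called with the replicate block, 910 with the sets of numbers as a block and 2 with only numbers 4 and 5, which leave 2 lungs a group, against 559; leaving out a lung gave 393 to 699. The cause was not tested. The block changed the call of no Hox gene. The count of members above the low-level threshold was 14, and 14 to 15 without 1 control, 20 with the 15th percentile, 14 with the 25th and 7 with the olfactory receptor percentile, whose level is higher. Low signal limits what can be said of the 15 low members. To a lesser degree this holds for the 7 members between the 20th percentile and the median, which lie below the olfactory receptor percentile.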

Other observations

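A further 6 probe sets carried a Hox symbol joined to another gene's symbol and were assigned to no gene. In a fit on all rows 0 of the 6 were called by limma. The probe set of Hoxa3 and 5730446D14Rik read 7.80 ± 0.04 in controls and 7.79 ± 0.04 in knockouts (SD, n = 5), and that of Hoxd4 and Hoxd3 read 6.44 ± 0.09 and 6.44 ± 0.12. Both probe sets of Hoxa11 and its antisense transcript Hoxa11os were low, with control means of 5.52 and 5.59. The probe set of Mira and Hoxa7 had the widest spread of the 6, at 6.24 ± 0.21 and 6.12 ± 0.22.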
